A study of Caenorhabditis elegans with 24 samples.

Results

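RNA of *pqm-1(ok485)* mutants exposed to CoCl2 was hybridized against RNA of wild-type animals exposed to CoCl2 on 3 of the 24 arrays of this study, after 20 h of exposure. These 3 arrays were chosen by their titles, and each holds both strains, 1 in Cy3 and 1 in Cy5. The mutants carry the *pqm-1* loss-of-function allele (*pqm-1*(lf) in the labels, and spelled ok435 in the array methods) and the wild type is the N2 strain; both received 5 mM CoCl2 from early day 1 of adulthood. Neither RNA on these arrays came from untreated animals. A further pair of comparisons of the same strains, each on 3 arrays, serves for contrast: both strains with CoCl2 for 6 h, and both strains untreated at 20 h. RNA was taken from whole synchronized populations, 3 biological replicates per comparison, so that fewer cells of a type and less RNA per cell cannot be told apart. The mutation is present in all tissues, and by the study's survival methods these mutants grow more slowly; the stage of the collected animals was otherwise given only as early day 1 adult.

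PQM-1 is a zinc finger transcription factor that is active mainly in the intestine, where it is known for driving genes of growth and reproduction and for acting opposite to DAF-16, the transcription factor held back by insulin signaling. CoCl2 is used as a chemical stand-in for low oxygen, because cobalt interferes with the oxygen-dependent enzyme that marks the hypoxia factor HIF-1 for destruction. It is also a metal salt, to which metallothioneins and heat shock genes can respond. The intestine makes yolk proteins (vitellogenins), stores fat, and takes up heme, and yolk is carried from it to the oocytes.

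The value given for each gene is a log2 ratio of *pqm-1(ok485)* over wild type, both with CoCl2, so that a positive value means a higher signal in the mutant. The mutant RNA was in Cy3 on arrays 1 and 2 and in Cy5 on array 3, according to the strain and treatment fields of each channel, and the study's own table of ratios has the same direction on 24 of 24 arrays. With this direction the arrays correlated at 0.954 (arrays 1 and 2), 0.880 (1 and 3) and 0.885 (2 and 3) over 38671 probes. The source names place the mutant in Cy5 on all 3 arrays, which would set array 3 against the other 2 at correlations of -0.880 and -0.885; the fields were followed. The median spot signal of the mutant channel was 356, 376 and 548 on the 3 arrays, against 212, 246 and 216 for the wild-type channel. Probes well above background made up 92.0%, 89.5% and 89.1% in the mutant channel, against 81.9%, 80.2% and 89.9% in the wild-type channel. Between 678 and 996 probes per array were saturated, against 2 to 36 on the untreated arrays, and all 3 arrays lay on 1 slide. Precision below is limited by there being 3 arrays.

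With CoCl2 for 20 h, 8608 of 23046 genes tested (37.4%) differed between *pqm-1(ok485)* and wild type at a Benjamini-Hochberg adjusted p below 0.01 from limma. Of these, 5465 (23.7% of the genes tested) were higher and 3143 (13.6%) were lower in the mutant. Differences of at least 2-fold were more one-sided, with 2020 genes (8.77%), 1739 of them higher (7.55%) and 281 lower (1.22%). Among the 8603 called genes with a value on all arrays, 8602 had the same sign on each of them, where 74% of all genes tested did. The call is made on the mean of these same arrays and largely requires 1 sign, so this is no separate support for it. The share of higher genes among the calls was 63.5%, but 53.8% under median centering in place of loess and 52.7% with the ratios of the scanner software, whose median over all genes was -0.10. The direction of small differences is therefore given relative to a median log2 ratio of 0.01 over all genes. Counts of list members below are to be read against 23.7% higher and 13.6% lower, and list medians against 0.01. Counts in untreated animals are to be read against 3.07% higher and 1.26% lower. Those at 6 h of CoCl2 are to be read against 12.9% higher and 5.25% lower. Treated minus untreated differences, the strain ratio with CoCl2 minus that without, are to be read against 11.2% positive and 3.07% negative.

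The 1 probe for *pqm-1* gave log2 ratios of 0.26, 0.12 and 0.18 on the 3 arrays (mean 0.19, SE 0.16, adjusted p = 0.36). Its signal was well above background in both strains, at 11.73, 11.68 and 11.52 on the log2 scale in the mutant and 11.47, 11.55 and 11.34 in wild type. Between untreated animals the same probe was lower in the mutant, with log2 ratios of -1.57, -1.36 and -1.43 (mean -1.46, adjusted p = 2.4e-04). The strain difference with CoCl2 minus that without was 1.64 (adjusted p = 6.9e-04). Where the probe lies relative to the deletion is not given in the sources used here, so the ratio with CoCl2 is no check of the genotype. Each strain was also set against its own untreated animals on 3 further arrays each, where 8118 genes passed in the mutant (35.2%; 22.8% higher and 12.4% lower) and 3669 in wild type (15.9%; 8.99% higher and 6.93% lower). On these arrays the *pqm-1* signal rose by a log2 ratio of 3.16 with CoCl2 in the mutant and of 1.98 in wild type. The 2 sets of arrays were unlike in signal. Wild-type replicate 3 had 69.0% of probes above background in either channel, and replicates 1 and 2 had 86.4% and 86.6%. The mutant arrays had 86.2% to 89.0%. Each set was spread over more than 1 slide, so the counts of the 2 strains are not ranked.

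The largest rises were led by cuticle collagens. *col-162* had log2 ratios of 3.93, 3.46 and 3.71 (mean 3.70, adjusted p = 1.5e-08) and was saturated in the mutant channel on all arrays, so that it was at least 13.01-fold higher in the mutant. *rol-6*, a collagen whose mutations twist the body, averaged 3.39, and *col-130*, *col-71*, *col-146*, *col-133* and *col-104* lay between 3.18 and 3.27. The other members of the top 10 were *cld-1* (3.76, 3.62 and 3.54; mean 3.64), which encodes a secreted protein with a CUB-like domain, *clec-4* (3.46, 2.83 and 3.44; mean 3.24), a C-type lectin, and F53F1.4 (4.04, 2.92 and 3.08; mean 3.35). Every one of these 10 genes stayed past the threshold under each alternative treatment of the data that kept the dyes of the fields.

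**Figure D1:**
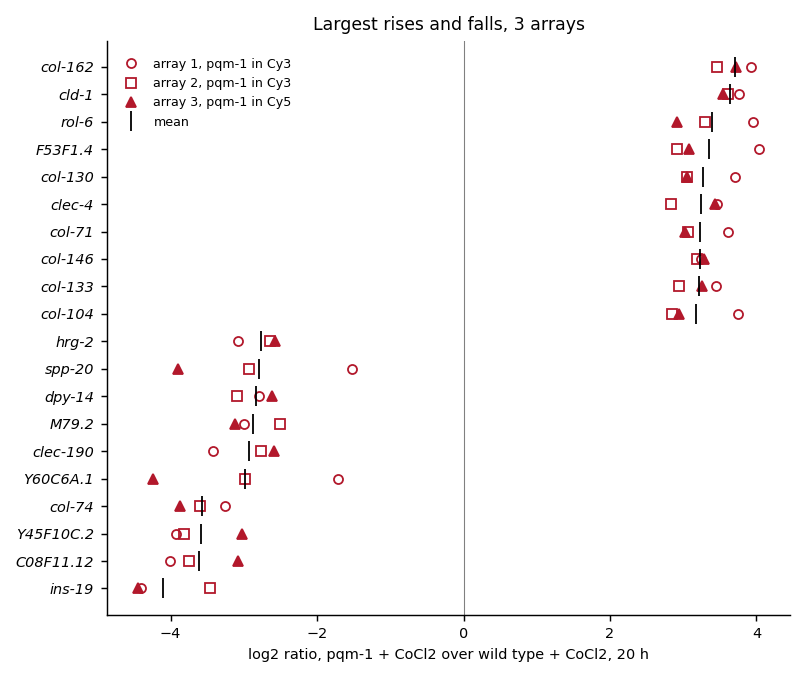
Log2 ratio of *pqm-1(ok485)* with CoCl2 over wild type with CoCl2 at 20 h (x axis) for the 10 largest rises and the 10 largest falls (y axis), with 1 symbol per array and a bar for the mean of 3 arrays. The rises lie close together, between 3.18 and 3.70 in the mean, while the arrays are spread widely for Y60C6A.1 and *spp-20*.

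The largest fall was that of *ins-19*, an insulin-like peptide, with log2 ratios of -4.40, -3.46 and -4.45 (mean -4.10, SE 0.23, adjusted p = 2.2e-07). Its signal was 5.56, 5.83 and 5.57 on the log2 scale in the mutant, against 9.96, 9.29 and 10.01 in wild type, so that the strains did not overlap. The mutant signal was dim, and the size of the fall depends on the processing. Under the alternatives that kept the dyes of the fields, its mean ran from -5.74 to -3.38. Between untreated animals *ins-19* was dim in both strains, with a ratio of -0.20, and the difference between the treated and untreated ratios was -3.90 (adjusted p = 4.9e-05). In wild type, *ins-19* rose by a log2 ratio of 3.34 with CoCl2 (adjusted p = 5.9e-07), whereas in the mutant its ratio to untreated animals was 0.16 (adjusted p = 0.59).

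The collagens *col-74* (mean -3.58) and *dpy-14* (mean -2.84) were among the largest falls, opposite to most collagens. Without CoCl2 these 2 collagens were lower in the mutant too, at -3.415 and -1.73. Their treated minus untreated differences were not past the threshold (adjusted p = 0.74 and 0.10). C08F11.12 (-4.01, -3.75 and -3.08; mean -3.62) and Y45F10C.2 (-3.93, -3.82 and -3.02; mean -3.59) ran closely together on every array, and whether their probes tell the pair apart was not tested. The lectin *clec-190* averaged -2.92 and M79.2 averaged -2.87. Both had been lower in the untreated mutant as well, at -1.79 and -2.90. Y60C6A.1 (-1.72, -2.99 and -4.24) and *spp-20*, which encodes a saposin-like protein (-1.53, -2.93 and -3.91), differed widely between arrays, and both lost their calls on the indirect path described below, with adjusted p of up to 0.23 and 0.179. The mutant signals of *col-74* (5.88), M79.2 (5.81) and Y60C6A.1 (5.635) were dim as well. Under the alternatives their means ran from -4.91 to -3.06, from -4.59 to -2.64 and from -5.1 to -1.44.

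*fat-7*, a stearoyl-CoA desaturase that makes oleic acid, was lower in *pqm-1(ok485)*, with log2 ratios of -2.44, -1.81 and -2.13 (mean -2.13, SE 0.25, adjusted p = 3.1e-05). Its signal was 6.35, 6.35 and 6.66 on the log2 scale in the mutant, against 8.80, 8.16 and 8.79 in wild type. The mutant signal was dim, and under the alternatives that kept the dyes of the fields the mean of *fat-7* ran from -3.06 to -1.91. Without CoCl2 it was much brighter in both strains, at 11.17 to 11.22 in the mutant and 11.49 to 12.14 in wild type, and the ratio of -0.66 was not past the threshold (adjusted p = 0.17). The treated minus untreated difference of -1.47 missed it as well (adjusted p = 0.011), and its size rests on the dim mutant signal with CoCl2. With CoCl2, *fat-7* fell by 4.01 on the log2 scale in the mutant and fell by 2.76 in wild type. At 6 h of CoCl2 the ratio was already -2.26.

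The other desaturases did not follow *fat-7*. The palmitoyl-CoA desaturase *fat-5* averaged -0.19 (adjusted p = 0.24) and *fat-6*, the near relative of *fat-7*, averaged 0.02 (adjusted p = 0.91), and neither mean kept its sign under all alternatives. *fat-3* (0.93), *fat-4* (0.55) and *fat-1* (0.42), which introduce further double bonds into polyunsaturated fatty acids, were higher, as was *sbp-1* (0.66), the worm SREBP that drives lipid synthesis. The call of *fat-1* was lost under 7 alternatives and that of *fat-4* under 5, and a probe of *fat-4* was saturated in the mutant channel on all arrays. Without CoCl2, *fat-3* was equally higher in the mutant (0.95), with a treated minus untreated difference of -0.01 (adjusted p = 0.96). Of 14 desaturation and synthesis genes tested, 4 were higher, a share near that of all genes, and only *fat-7* was lower (median 0.13).

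Genes that break down or activate fatty acids were more often higher than lower. Of 41 beta-oxidation genes tested, 19 were higher and 1 was lower (median 0.23). The acyl-CoA dehydrogenases *acdh-8* (2.24) and *acdh-5* (1.70), the carnitine palmitoyltransferase *cpt-4* (1.06) and the peroxisomal thiolase *daf-22* (0.55) were among the higher ones. The 1 lower member was *acdh-1*, at -0.94, -0.97 and -0.01 on the 3 arrays (mean -0.64, adjusted p = 0.0099), whose call was lost under 14 of the alternatives. Acyl-CoA synthetases were higher for 15 of 22 members and lower for none (median 0.50), with *acs-18* at 2.33 and *acs-2*, which feeds mitochondrial beta-oxidation, at 1.30, 1.29 and 0.92 (mean 1.17). *acs-2* was at -0.41 between untreated animals, and the difference of 1.58 was past the threshold (adjusted p = 2.3e-04).

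Fatty acid elongases were higher for 4 of 8 members and lower for 1. *elo-7* averaged 1.31 and *elo-6*, which makes branched-chain fatty acids, averaged 0.79, while *elo-2* averaged -0.44, a call lost under 9 alternatives. *elo-6* had been at -1.54 at 6 h of CoCl2, and its change of 2.33 between the times was past the threshold (adjusted p = 1.9e-07). In lipases and fat mobilization, 10 of 27 genes were higher and 2 lower (median 0.19), with the lysosomal lipases *lipl-2* (1.47) and *lipl-1* (1.29) and the fasting-induced lipase *fil-1* (1.03) above 1 and *atgl-1*, the worm adipose triglyceride lipase, at -0.39. The fatty acid and retinol binding protein *far-3* (2.72, 2.07 and 1.39; mean 2.06) and the lipid binding protein *lbp-7* (mean 1.09) were also higher. Their list of 16 had 5 higher and 1 lower, and its median was -0.08. That median turned to 0.14 under median centering and to 0.2 on the indirect path described below.

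*sodh-1*, an alcohol dehydrogenase with sorbitol dehydrogenase homology (K12G11.3, named *adh-1* in the RefSeq table), was higher in *pqm-1(ok485)*, with log2 ratios of 1.68, 1.70 and 1.26 (mean 1.55, SE 0.14, adjusted p = 6.9e-06). A probe of it was saturated in the mutant channel on all 3 arrays. Between untreated animals the ratio was -0.20, and the treated minus untreated difference was 1.75 (adjusted p = 2.7e-04). *sodh-1* rose with CoCl2 in both strains, by a log2 ratio of 3.99 in the mutant and of 2.23 in wild type. The strain ratio was 2.53 at 6 h, and because of the saturated probe at 20 h no order of the times is read from it. Its relative *sodh-2* was dim and averaged -0.43, a call lost under 9 alternatives.

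Of 18 genes for glycogen, trehalose, glycerol and sorbitol, 9 were higher and 1 was lower (median 0.34). The trehalose synthase *tps-1* averaged 0.88, the glucosidase *aagr-4* averaged 0.99 and the glycogenin *gyg-1* averaged 0.44 (0.66 between untreated animals, and a call lost under 10 alternatives). The glycerol-3-phosphate dehydrogenase *gpdh-1* averaged 0.63, but 1.26 between untreated animals. Its strain difference was thus smaller with CoCl2, by a treated minus untreated difference of -0.63 (adjusted p = 0.0033). The enzymes that build and break the bulk of glycogen did not pass the test, with glycogen synthase *gsy-1* at -0.47 (adjusted p = 0.01002) and glycogen phosphorylase *pygl-1* at -0.30 (adjusted p = 0.051). Glycolysis, gluconeogenesis and the glyoxylate cycle had 4 of 20 higher and 1 lower, a share near that of all genes, and its higher members included *pfk-1.2* (1.60), *pyk-2* (1.14) and *icl-1* (0.77).

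**Figure D2:**
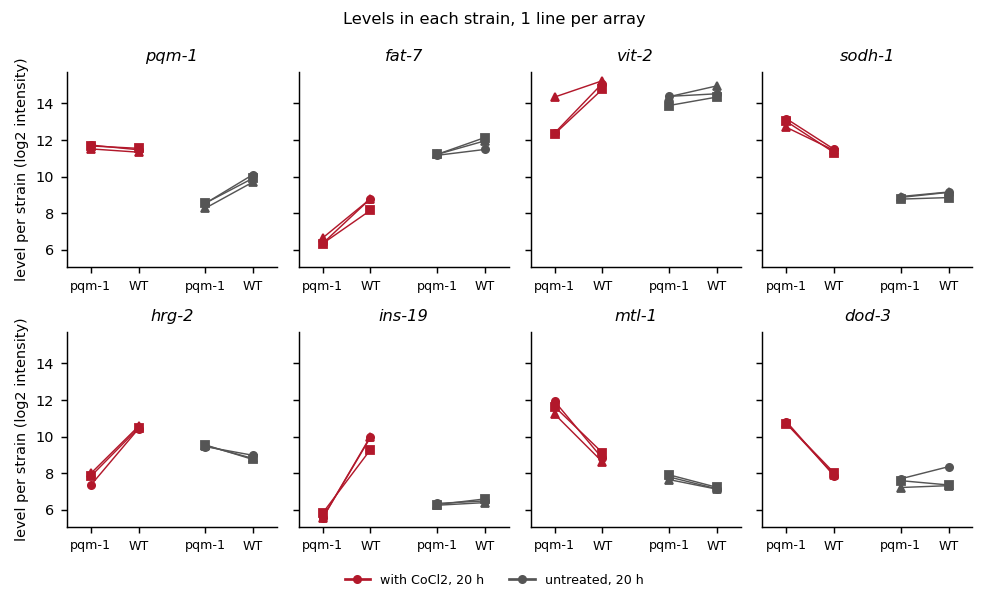
Signal of each strain on the log2 intensity scale (y axis) for 8 genes, with a line joining *pqm-1(ok485)* and wild type (WT) of 1 array (red, with CoCl2 at 20 h; gray, untreated at 20 h). The strain gap opens with CoCl2 for *ins-19*, *hrg-2*, *dod-3* and *sodh-1*, and for *pqm-1* itself it is larger without CoCl2.

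Yolk protein genes were lower in *pqm-1(ok485)*. *vit-2* had log2 ratios of -2.71, -2.44 and -0.89 (mean -2.02, SE 0.36, adjusted p = 5.8e-04), and a probe of it was saturated in the wild-type channel on all arrays, as was one of *vit-5*, while *vit-4* had a saturated probe on 2 arrays. *vit-4* (-2.62, -3.35 and -1.18), *vit-5* (-2.16, -2.72 and -1.195) and *vit-6* (-2.69, -2.21 and -0.90) were lower as well, each past the threshold. *vit-1* (-0.80, -0.45 and 0.32) was not (adjusted p = 0.46). So 4 of the 5 vitellogenins with a probe fell, and array 3, the only one with the mutant in Cy5, gave the smallest fall for each of them. The genes *vit-3*, *vit-4* and *vit-5* are near-identical, no probe was matched to *vit-3*, and the values of *vit-4* and *vit-5* cannot be assigned to 1 gene with certainty.

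None of the vitellogenins passed the threshold between untreated animals (median -0.33), and none of the treated minus untreated differences did (median -1.69, adjusted p from 0.012 for *vit-6* to 0.41 for *vit-1*). All 5 were lower at 6 h of CoCl2, with a median of -1.81. On the indirect path, which adds the mutant's response to CoCl2 to the ratio between untreated strains and takes off the wild-type response, their median was -0.43 and none passed. *vit-2* stood at -1.40 and *vit-6* at -1.28 there, while *vit-4* and *vit-5* stood at -0.43 and -0.35. *vit-2* fell with CoCl2 by 3.12 (log2) in the mutant and by 2.12 in wild type, on arrays of each strain against its untreated animals. The single-strain signals from the strain comparisons did not show this fall in wild type. There they were 15.09, 14.77 and 15.24 with CoCl2, against 14.53, 14.35 and 14.96 untreated. In the mutant they were 12.38, 12.33 and 14.35, against 14.39, 13.89 and 14.37. The treated and untreated signals came from different slides, and the reason for the conflict was not tested. Of 2 transcription factors that drive vitellogenin transcription, *unc-62* was lower (-0.56, -0.41 and -0.52; mean -0.50, adjusted p = 5.0e-04) and *ceh-60* averaged 0.02 (adjusted p = 0.86).

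Oocyte, eggshell and yolk uptake genes were lower for 18 of 24 members and higher for none (median -0.49). *mex-1* (mean -1.07) and *spn-4* (-0.82), RNA-binding proteins supplied to the embryo, *cpg-3* (-0.85), an eggshell proteoglycan, and *egg-1* (-0.49), an oocyte receptor for sperm, were among them, and the call of *egg-1* was lost under 10 alternatives. In untreated animals none of the 24 passed (median -0.12), and of the differences between treated and untreated animals only that of *mex-1* did (-0.99, adjusted p = 0.0086). Early embryonic genes were lower for 20 of 54 members and higher for 7 (median -0.20), with *sdz-30* at -1.43, *hnd-1* at -1.04 and *pes-10* at -0.83, and with the endodermal factor *elt-7* at 0.66. Unlike the oocyte genes, 9 of this list were lower and 1 higher in untreated animals too (median -0.19). *sdz-30* (-1.035, adjusted p = 0.0031) and *pes-10* (-0.73, adjusted p = 0.0058) were among those 9. Over the list, 4 treated minus untreated differences past the threshold were positive and 1 was negative. Both shares were smaller than those of all genes tested (11.2% and 3.07%). Of 33 meiosis and germ granule genes, 5 were lower and 1 was higher, and their median of -0.15 turned to 0.14 under median centering. None of 8 germ line markers passed (median -0.05, turning to 0.16 under median centering).

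Sperm genes were higher. Of 41 major sperm protein genes tested, 40 were higher and none lower (median 1.95, and 3.18 on the indirect path), with *msp-64* the highest at 2.94. The exception, *msp-81* (1.03, adjusted p = 0.0144), was saturated in the mutant channel on all arrays. These genes are near-identical copies, 21 of the 41 had a saturated probe on some array, and they cannot be counted as independent. The other spermatogenesis genes were higher for 53 of 65 members and lower for 1 (median 1.38). *spe-11*, a sperm protein needed by the embryo, had log2 ratios of 3.28, 2.21 and 1.95, *nspd-1* averaged 2.81 and the sperm phosphatase *gsp-3* averaged 1.89, while *fog-1*, which specifies sperm fate in the germ line, averaged -0.48.

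Sperm genes had also differed without CoCl2, though in the 2 lists to unlike extents. The major sperm proteins had a median of 2.15 with 31 higher in untreated animals, and of 3.11 with 41 higher at 6 h, and with the saturation at 20 h these medians are not ranked against 1.95. The other spermatogenesis genes had medians of 0.24 with 9 higher in untreated animals and 0.51 with 38 of 65 higher at 6 h. Over all genes tested, 3.07% were higher in untreated animals and 12.9% at 6 h. Of the 65 list members, 31 had a treated minus untreated difference past the threshold. All of these differences were positive, where 11.2% of all genes tested had a positive one. In untreated animals *spe-11*, 1 of these genes, was dim, at 6.81 to 7.15 in the mutant and 6.68 to 6.76 in wild type. The part of dim signal in the untreated median of 0.24 was not tested. None of 9 male sensory genes was called. The part of the sperm genes, and of any difference in stage that they may mark, in the other results was not tested.

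Cuticle collagens had the widest range of any list. Of 164 tested, 94 were higher and 10 lower, 61 of them at least 2-fold higher and 5 at least 2-fold lower (median 0.59, range -3.58 to 3.70). *dpy-13* was saturated in the mutant channel on all arrays and at least 6.79-fold higher in the mutant, *sqt-1* averaged 2.47 and *bli-1*, a strut collagen of the adult cuticle, averaged 1.90. In untreated animals 64 were already higher and 5 lower (median 0.29), against 3.07% and 1.26% of all genes tested. *sqt-1* (2.28 without CoCl2) and *col-146* (2.77) had treated minus untreated differences of 0.19 and 0.46, neither past the threshold. *dpy-13* was at 2.77 without CoCl2, and its saturated signal with CoCl2 allows no such difference. For *col-130*, *col-71*, *col-133* and *col-104* the difference with CoCl2 was larger by 1.03 to 1.35, each past the threshold. Over the list 41 such differences were positive and 11 negative, against 11.2% and 3.07% of all genes tested.

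Hedgehog-related and patched-related genes, many of them made by the epidermis, were higher for 36 of 79 members and lower for 4 (median 0.26). *grd-6* averaged 2.65 and *wrt-4* averaged 2.07, and both differences to untreated animals (1.59 and 1.25) were past the threshold. The glutamine-rich abu and pqn genes were higher for 33 of 61 and lower for 5 (median 0.37), with *pqn-78* at 2.39 and *abu-8* at 2.25. Among transthyretin-related genes 24 of 53 were higher and 3 lower (median 0.40), from *ttr-42* at -1.61 to *ttr-12* at 2.49.

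**Figure D3:**
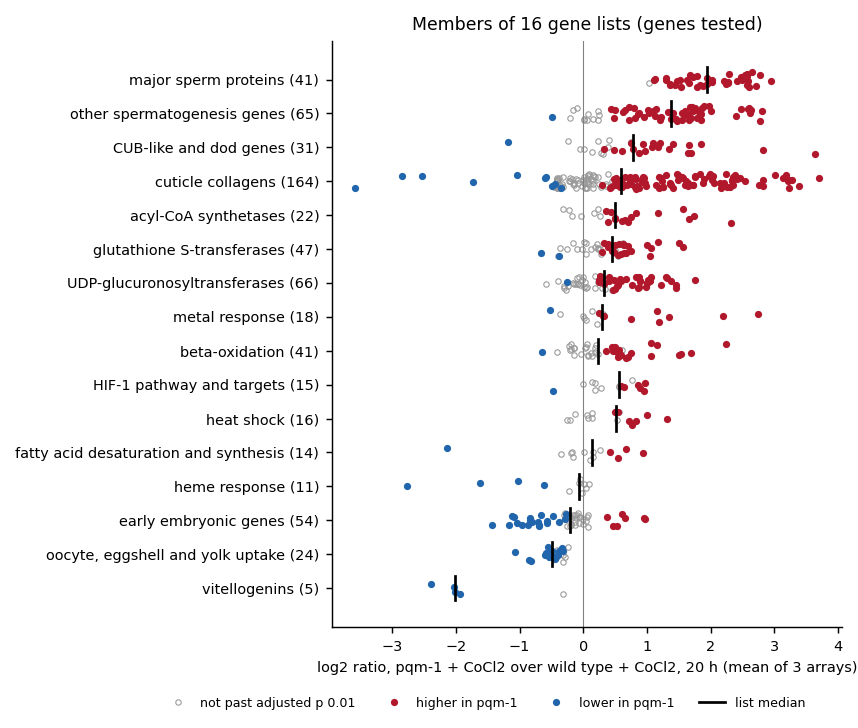
Log2 ratio of *pqm-1(ok485)* with CoCl2 over wild type with CoCl2 at 20 h (x axis, mean of 3 arrays) for each tested member of 16 gene lists (y axis, number of genes in brackets); red points are higher and blue points lower at an adjusted p below 0.01, open gray points did not pass, and black bars are list medians. Major sperm proteins (median 1.95) and vitellogenins (median -2.02) lie at the ends.

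Heme genes held some of the clearest falls. *hrg-2*, a heme-responsive gene of the epidermis, had log2 ratios of -3.08, -2.64 and -2.58 (mean -2.77, adjusted p = 6.4e-07), with signals of 7.35, 7.84 and 7.997 in the mutant against 10.44, 10.48 and 10.57 in wild type. *hrg-3*, which carries maternal heme to embryos, averaged -1.62, and *hrg-1*, a heme transporter of the intestine, averaged -1.03 (-1.18, -0.99 and -0.91). *hrg-7*, a secreted protease of heme signaling, averaged -0.61, a call lost under 7 alternatives. These were the 4 lower members among 11 tested, with none higher, and the other 7 members held the median at -0.07 (0.17 under median centering).

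For all 4 heme genes the strain difference with CoCl2 differed from that without. *hrg-2* had been at 0.66 in untreated animals (adjusted p = 0.044), a difference of -3.43 (adjusted p = 3.4e-05), and the differences of *hrg-3*, *hrg-1* and *hrg-7* were -1.92, -1.38 and -1.32. In wild type, *hrg-2* rose by 1.99 and *hrg-1* by 1.38 on the log2 scale with CoCl2. In the mutant *hrg-2* fell by 1.09 and *hrg-1* was at -0.10 (adjusted p = 0.33).

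Metal response genes were higher for 9 of 18 members and lower for 1 (median 0.29). The metallothionein *mtl-1* had log2 ratios of 3.12, 2.52 and 2.60 (mean 2.75, adjusted p = 8.4e-07), with signals of 11.94, 11.65 and 11.24 in the mutant against 8.83, 9.14 and 8.64 in wild type. Its partner *mtl-2* averaged 2.19 (2.37, 2.15 and 2.05) and the cadmium-responsive *cdr-1* averaged 1.34. Both metallothioneins differed more with CoCl2 than without, by 2.13 for *mtl-1* (adjusted p = 3.7e-04) and 1.84 for *mtl-2* (adjusted p = 1.6e-04). The way this came about differed between the 2 genes. *mtl-1* rose by 3.43 with CoCl2 in the mutant and stood at 0.71 in wild type, not past the threshold (adjusted p = 0.015), whereas *mtl-2* fell by 1.04 in the mutant and fell by 2.86 in wild type. *mtl-2* had been at -0.73 at 6 h, a change of 2.92 between the times (adjusted p = 9.3e-09).

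Genes of the HIF-1 pathway and its targets were higher for 6 of 15 members and lower for 1 (median 0.57, or 0.35 without replicate 1). *nhr-57*, a standard HIF-1 target, had log2 ratios of 1.07, 0.81 and 0.96 (mean 0.95, adjusted p = 6.2e-06), against -0.25 in untreated animals, a difference of 1.19 (adjusted p = 1.5e-04). *gbh-2* (0.97), *cysl-1* (0.86) and *rhy-1* (0.59), of which the last 2 act on the hydroxylase branch of the pathway, were higher, and *swan-1* (-0.47) was lower, but the call of *rhy-1* was lost under 9 alternatives. *hif-1* itself averaged 0.19 (adjusted p = 0.037). *nhr-57* rose with CoCl2 in both strains, by 1.88 in the mutant and by 0.64 in wild type.

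Stress genes were shifted the same way without any lower member in 3 lists. Heat shock genes were higher for 7 of 16 (median 0.51), among them *hsp-16.2* (1.49, 1.41 and 1.03; mean 1.31) and *hsp-70* (1.00, a call lost under 8 alternatives). *hsp-16.2* was induced by a log2 ratio of 5.09 in the mutant and of 5.02 in wild type, and the treated minus untreated difference of 0.33 was not past the threshold (adjusted p = 0.49). Genes of the unfolded protein response of the endoplasmic reticulum were higher for 8 of 18 (median 0.28), with the chaperone *hsp-4* at 0.95 and a difference to untreated animals of 0.98 (adjusted p = 0.0088). Superoxide dismutases and catalases were higher for 6 of 11 (median 0.41), with the mitochondrial *sod-3*, a DAF-16 target, at 1.33 (1.59, 1.58 and 0.82) and the peroxisomal catalase *ctl-2* at 0.74.

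Detoxification genes were higher on balance. UDP-glucuronosyltransferases were higher for 35 of 66 and lower for 1 (median 0.33), led by *ugt-2* at 1.75. Glutathione S-transferases were higher for 23 of 47 and lower for 2 (median 0.46), with *gst-19* at 1.57 and a difference to untreated animals of 1.79 (adjusted p = 6.6e-04). Cytochromes P450 were higher for 25 of 71 and lower for 5 (median 0.13, or 0.05 without replicate 1 and 0.27 without replicate 3), with *cyp-33C7* at 1.35 and *cyp-34A7* at -0.17, -1.004 and -1.92 (mean -1.03), whose call was lost under 8 alternatives. Short-chain dehydrogenases were higher for 11 of 29 and lower for 1 (median 0.16).

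Genes with CUB-like domains and the dod genes, which lie downstream of DAF-16 and many of which respond to pathogens, were higher for 20 of 31 and lower for 1 (median 0.78). *dod-3* had log2 ratios of 2.96, 2.69 and 2.81 (mean 2.82), with signals of 10.83, 10.72 and 10.73 in the mutant against 7.87, 8.03 and 7.92 in wild type. Without CoCl2 it was at -0.18, so that the strains differed by 3.00 more with CoCl2 (adjusted p = 5.5e-05), and it rose by 2.04 in the mutant while it fell by 1.16 in wild type. *dod-24* (1.18, 1.18 and 1.17) had been lower in untreated mutants (-0.82, adjusted p = 0.0030), a difference of 2.00. C32H11.4 averaged 1.85, and *dod-23*, at -1.18, was the 1 lower member. Over this list 14 differences to untreated animals were positive and 1 was negative, against 11.2% and 3.07% of all genes tested.

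C-type lectins, a large family with secreted members that bind sugars, were higher for 73 of 213 and lower for 14 (median 0.14, turning to -0.06 under median centering). *clec-67* averaged 2.50. Lysozymes, saposins and antimicrobial peptides were higher for 32 of 85 and lower for 3 (median 0.26). The lysozyme *lys-7* was saturated in the mutant channel on all arrays and at least 5.04-fold higher in the mutant, and it rose by 1.33 with CoCl2 in the mutant while it fell by 1.03 in wild type. *lys-3* (-0.40, -1.95 and -2.83) fell with the same spread over the arrays as *spp-20* and Y60C6A.1, array 1 being the least negative for each, and its call was lost under 9 alternatives. Intestinal proteases were higher for 12 of 24 and lower for 1 (median 0.31).

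Few signaling genes changed by much apart from *ins-19*. Of 39 insulin-like peptides, 7 were higher and 3 lower, with *ins-35* at 1.51, 1.33 and 1.51 (mean 1.45) and *ins-2* at -0.78. The insulin receptor *daf-2* averaged -0.58 (-0.61, -0.51 and -0.63), against -0.03 in untreated animals, a difference of -0.55 (adjusted p = 0.0043). Among 17 PQM-1 partners and stress transcription factors, 2 were higher and 3 lower, with the bZIP factor *zip-2* at 0.66, the kinase *sgk-1* at 0.45 and the intestinal GATA factor *elt-2* at 0.30 (adjusted p = 0.013). Neuropeptides were higher for 17 of 64, a share near that of all genes, and lower for 2 (median 0.23). One of the lower was *nlp-39* (-1.38, -1.15 and -1.44), which rose by 3.20 with CoCl2 in wild type and by 1.23 in the mutant. Nuclear hormone receptors were higher for 87 of 249 and lower for 8 (median 0.19), led among the genes named here by *nhr-73* at 1.23.

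The labels name no tissue, and each list of tissue markers was measured. Body wall muscle markers were higher for 6 of 8 (median 0.58), such as the myosins *myo-3* (0.87) and *unc-54* (0.68), and pharynx muscle markers for 5 of 6 (median 0.63). These muscle markers stood at similar medians without CoCl2, at 0.61 and 0.65, and none of their treated minus untreated differences passed. Adult hypodermis markers were higher for 4 of 6 (median 0.55, with *rol-6* among them), intestine markers for 2 of 5 (median 0.27, with the gut esterase *ges-1* at 1.57) and neuron markers for 2 of 8 (median 0.15, with *rab-3* at 0.31), and no marker in these lists was lower. The share of higher neuron markers was near that of all genes. The calls of *unc-54* and *rab-3* were lost under 8 and 10 alternatives. The part of this shift in tissue markers in the other results was not tested.

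Respiratory chain genes were higher for 22 of 47 and lower for 1 (median 0.28), only 1 of them by 2-fold. Proteasome genes were lower for 2 of 30 and higher for none (range -0.34 to 0.36). Ribosomal protein genes were higher for 2 and lower for 6 of 64, but 62 of the 64 had a saturated probe on some array and 23 were saturated in both channels on all arrays, so that no ratio is given for them. Histones were higher for 7 and lower for 10 of 45, many of them near-identical copies.

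Without CoCl2, fewer genes separated the strains. At 20 h, 998 of 23046 genes (4.33%) differed between untreated *pqm-1(ok485)* and untreated wild type, 708 higher (3.07%) and 290 lower (1.26%). The strain difference with CoCl2 itself differed from that without for 3279 genes (14.2%), 2572 of them with a positive difference (11.2%) and 707 with a negative one (3.07%). The largest positive differences were those of T19C9.8 (3.03), *dod-3* (3.00), *clec-4* (2.72), F53F1.4 (2.55) and F33H12.7 (2.49), and the largest negative ones were those of *ins-19* (-3.90), *hrg-2* (-3.43), Y60C6A.1 (-2.99), C08F11.12 (-2.74) and Y45F10C.2 (-2.67). T19C9.8 changed sides, at 1.73, 1.14 and 1.15 with CoCl2 against -1.69 in the mean without it. The untreated arrays lay on another slide, so that slide and treatment cannot be told apart in this contrast, and they were dimmer. The count fell to 504 without the offset added to the background-corrected signal and to 1801 with the slide as a random block. It fell to 1410 without replicate 1 of the treated arrays and to 1460, 1709 or 1451 without replicate 1, 2 or 3 of the untreated ones.

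At 6 h, 4205 of 23121 genes (18.2%) differed between the strains in the fit of both times (12.9% higher and 5.25% lower), and 4112 genes (17.8%) changed their strain difference between the times, 2730 of them upward (11.8%) and 1382 downward (5.98%). The largest upward changes were those of *clec-4* (3.08), K01D12.9 (2.98), *mtl-2* (2.92), the bestrophin-like *best-7* (2.69) and *oac-6* (2.67), and the largest downward ones were those of *fbxa-163* (-3.46), Y60C6A.1 (-3.01), *spp-20* (-2.93), *dpy-14* (-2.57) and Y82E9BR.17 (-2.49). *fbxa-163*, which encodes an F-box protein, was at 2.66 at 6 h and at -0.80 at 20 h (adjusted p = 0.049 at 20 h). *best-7* and *oac-6* went the other way, at 1.48 and 1.80 at 20 h after -1.21 and -0.87 at 6 h. The 6 h arrays lay on a different slide from the 20 h arrays. The count fell to 1507 without the offset.

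**Figure D4:**
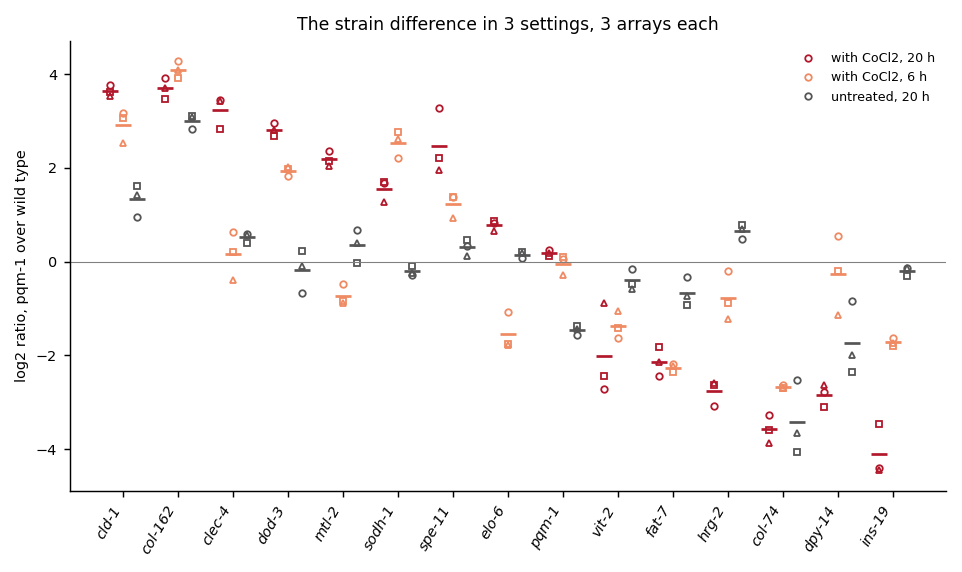
Log2 ratio of *pqm-1(ok485)* over wild type (y axis) for 15 genes (x axis) with CoCl2 at 20 h (red), with CoCl2 at 6 h (orange) and untreated at 20 h (gray), with 1 open symbol per array and a bar for the mean of 3 arrays. *col-162* and *col-74* keep their side in all settings, while *hrg-2*, *dod-3* and *sodh-1* lie near or past 0 on the other side without CoCl2, and *elo-6* and *mtl-2* change side between 6 h and 20 h.

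The same difference can be pieced together from the 9 other arrays at 20 h, as the ratio between untreated strains plus the mutant's response to CoCl2 minus that of wild type. On this indirect path 2247 genes (9.75%) passed the threshold, 2053 higher (8.91%) and 194 lower (0.842%). Of these, 2229 had also been called on the direct arrays, all with the same sign. Of the 8608 genes called directly, 8391 had the same sign on the indirect path, and over the 23046 genes the direct and indirect ratios correlated at 0.922, genes not being independent of each other and the RNA of the 2 paths possibly being shared. Genes with the same sign on both paths included, with their indirect ratios, *col-162* (4.80), *cld-1* (4.13), *mtl-1* (3.34), *dod-3* (3.02), *ins-19* (-3.38), *hrg-2* (-2.43) and *fat-7* (-1.91). Of these, *fat-7* did not pass on the indirect path (adjusted p = 0.0185).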

How the data were processed

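Per the file headers, the authors took the median pixel intensity of spots and their surroundings from the scanner's Feature Extraction software, uncorrected. The deposited files also hold intensity values that this software had background-subtracted and dye-normalized, and the log10 ratio of its Cy5 over its Cy3 signal. The authors' series table holds log2 values of that ratio with the sign of each comparison, and it was used as an alternative. How the study made its own gene sets is given as one- or two-class SAM.

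Background was corrected with normexp (offset 50) on the median signals, although the plan assumed another spot signal, and the log2 ratios of each array were then loess-normalized. Control and outlier spots were dropped, saturated ones were not. Replicate spots were averaged first and the probes per gene second. RefSeq names or accessions placed 34510 of 43603 probes on a gene. The gene coordinates of the array design and of the RefSeq table come from different builds, so none is printed. Testing required a probe to be above background, in either channel, on all 3 arrays of some comparison of its time, and a gene to have values on 2 or more arrays in every comparison. Signals of single strains are loess and Aquantile normalized, and "at least" fold differences are bounds from saturated spots, open to dye bias.

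The 12 arrays at 20 h were fitted together with limma 3.58.1 in R 4.3.3 (functions lmFit and eBayes), which left 8 residual degrees of freedom. The Benjamini-Hochberg adjustment ran over all genes tested, with a threshold of 0.01. Values at 6 h come from a fit of all 24 arrays. In simulated data for this comparison with 23046 genes, 56.1% of genes changed by a log2 ratio of 0.5, 89.6% of those changed by 1 and 98.5% of those changed by 2 were called, and 1 of 22846 unchanged genes was. The simulation of the treated minus untreated difference recovered 19.7%, 74.6% and 94.0%. The simulated noise was independent between genes and arrays, and few genes were changed. Shifts shared by a slide or a dye, and saturation, could not arise in it, so these rates do not cover false calls from them.

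The genes named are the 10 largest rises and falls with the same sign on all arrays, the 5 largest differences each way in each of the other contrasts, members of the gene lists, and *pqm-1*, *fat-7*, *sodh-1*, *unc-62*, *ceh-60*, *fat-5*, *fat-6* and the vitellogenins. The arrays and the gene lists were chosen with earlier results of these data known. Alternatives covered the threshold, the background offset, the normalization, the scanner's and the series table's ratios, filters on dim probes, single probes, a dye term, the slide, the replicate number, the arrays in the fit, SAM in an own implementation, the indirect and loop paths, dyes taken from source names, and leaving out single replicates.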

Additional observations from a re-analysis of the deposited data

Results flagged for a closer look

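For 66 of the 133 named genes the strain difference with CoCl2 differed from that without CoCl2 at 20 h, by the limma test of the difference. The differences (treated minus untreated log2 ratio) were positive for T19C9.8 (3.03), *dod-3* (3.00), *clec-4* (2.72), F53F1.4 (2.55), F33H12.7 (2.49), K01D12.9 (2.41), *far-3* (2.35), *cld-1* (2.30), *best-7* (2.19), *spe-11* (2.17), *mtl-1* (2.13), *pqn-78* (2.02), *dod-24* (2.00), *lys-7* (1.91), *mtl-2* (1.84), *abu-8* (1.83), *acs-18* (1.80), *gst-19* (1.79), *sodh-1* (1.75), *oac-6* (1.69), *pqm-1* (1.64), *grd-6* (1.59), *acs-2* (1.58), *ugt-2* (1.38), *col-104* (1.35), *ges-1* (1.29), *col-133* (1.25), *wrt-4* (1.25), *cyp-33C7* (1.24), *col-130* (1.23), *acdh-5* (1.22), *elo-7* (1.21), C32H11.4 (1.21), *nhr-57* (1.19), *sod-3* (1.12), *pyk-2* (1.06), *col-71* (1.03), *lipl-1* (1.02), *ctl-2* (1.02), *hsp-4* (0.98), *cdr-1* (0.95), *nhr-73* (0.94), *fil-1* (0.84), *bli-1* (0.81), *lbp-7* (0.78), *sbp-1* (0.76), *tps-1* (0.71), *fat-4* (0.61) and *elt-7* (0.58). They were negative for *ins-19* (-3.90), *hrg-2* (-3.43), Y60C6A.1 (-2.99), C08F11.12 (-2.74), Y45F10C.2 (-2.67), *hrg-3* (-1.92), *ttr-42* (-1.51), *nlp-39* (-1.49), *hrg-1* (-1.38), *hrg-7* (-1.32), *clec-190* (-1.13), *mex-1* (-0.99), *ins-2* (-0.65), *elo-2* (-0.63), *gpdh-1* (-0.63), *daf-2* (-0.55) and *swan-1* (-0.43). The treated and the untreated arrays lay on different slides, which cannot be told apart from the treatment. *lys-7*, and a probe of *sodh-1* and of *fat-4*, were saturated in the mutant channel on all 3 treated arrays, so that the sizes of these differences are uncertain.

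For 57 of the named genes the strain difference with CoCl2 changed between 6 h and 20 h by the same kind of test. The changes (20 h minus 6 h) were positive for *clec-4* (3.08), K01D12.9 (2.98), *mtl-2* (2.92), *best-7* (2.69), *oac-6* (2.67), F53F1.4 (2.53), *elo-6* (2.33), *wrt-4* (1.92), *lys-7* (1.65), *mtl-1* (1.64), *col-130* (1.63), *vit-1* (1.61), *far-3* (1.61), *col-104* (1.59), *abu-8* (1.59), *cdr-1* (1.55), T19C9.8 (1.53), *elo-2* (1.42), *pyk-2* (1.27), *spe-11* (1.25), *gst-19* (1.2), *bli-1* (1.12), C32H11.4 (1.10), *pqn-78* (1.10), *ugt-2* (1.08), *elo-7* (1.05), *ges-1* (1.02), *hsp-4* (1.01), *col-71* (1.00), *nhr-73* (1.00), *acs-2* (0.86), *fil-1* (0.83), *elt-7* (0.69), *nhr-57* (0.67), *cyp-33C7* (0.65), *gpdh-1* (0.61), *fat-1* (0.50) and *rab-3* (0.41). They were negative for *fbxa-163* (-3.46), Y60C6A.1 (-3.01), *spp-20* (-2.93), *dpy-14* (-2.57), Y82E9BR.17 (-2.49), *ins-19* (-2.39), *msp-81* (-2.23), *nlp-39* (-2.08), *hrg-2* (-2.0), *lys-3* (-1.80), Y45F10C.2 (-1.54), C08F11.12 (-1.51), *sdz-30* (-1.46), *ttr-42* (-1.37), *hnd-1* (-1.2), *sodh-1* (-0.98), *ins-2* (-0.85), *pes-10* (-0.64) and *daf-2* (-0.57). The negative changes of *msp-81* and *sodh-1* rest on probes saturated in the mutant channel at 20 h, so that no order of the times is read from them, and the size of the change of *lys-7* is uncertain for the same reason.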

How the results depend on the processing

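The number of genes that differed between the strains with CoCl2 lay between 5209 and 11832 under the alternatives that kept the direct arrays and the dyes of the fields. It was 5423 with no offset and 2247 on the indirect path. The number of higher genes was 2053 and of lower genes 194 on the indirect path. Lower genes numbered 5018 at an adjusted p below 0.05, 1607 with no offset and 1909 with only the 3 arrays in the fit. Leaving out replicate 1, 2 or 3 gave 5209 to 7248 genes, with 3814 to 4835 higher and 1395 to 2413 lower. With the dyes of the source names 0 genes passed in limma (0 higher, 0 lower), the smallest adjusted p being 0.944 and 393 genes having an unadjusted p below 0.05, and 8476 of the 8608 calls then had the other sign. The treated minus untreated contrast gave 6179 genes at an adjusted p below 0.05, 504 with no offset, 1278 with median centering, 1028 with the scanner's ratios, 1026 with the series table, 1801 with the slide as a random block, 2158 with a dye effect per slide, and 1410 to 2976 with a replicate left out. The 20 h minus 6 h contrast gave 6493, 1507, 2437, 2025 and 2026 under the first 5 of these settings and 2589 to 3671 with a replicate left out. A cause of these changes was not tested, except that fewer arrays leave fewer degrees of freedom.

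Values that changed sign were those of *pqm-1* (-0.28 on the indirect path), *vit-1* (0.32 on the indirect path), *fat-5* (0.03 with median centering), *ceh-60* (-0.19 with the scanner's ratios, -0.19 with the series table, -0.03 on the indirect path and -0.01 without replicate 2) and *fat-6* (-0.15 with the scanner's ratios, -0.15 with the series table, -0.02 with a dye term, -0.03 with a dye effect per slide, and between -0.05 and 0.15 with a replicate left out), none of them past the threshold in the main analysis. Among the 133 named genes the indirect path kept the direction but lost the call for 56, and median centering did so for 15.

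With the replicate number as a block 8415 genes passed, 3141 in the treated minus untreated contrast and 4006 in the 20 h minus 6 h contrast. The numbers were not taken as pairs, since replicates of the same number did not deviate together in every comparison, the correlations across genes running from -0.34 to 0.398. Between arrays of different numbers the correlations ran from -0.526 to 0.624. Each comparison held arrays of both dye directions, so these correlations cannot show whether the numbers are pairs.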
